A study of Mus musculus with 26 samples.

Results

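The adrenergic and natriuretic receptors of fat and the enzymes that read and clear their second messengers were followed in inguinal subcutaneous white adipose tissue through 9 genes: Adrb1, Adrb3, Adra1a, Adra2a, Npr1, Npr3, Pde3b, Pde4d and Prkar2b. The members were all array probes that carried one of these gene names, which gave 22 of the 56605 different probes on the array. Of these, 17 passed the filter on dim signals and were tested among 38832 probes, and every one of the 9 genes had at least 1 tested probe. The other 5, which were 1 probe of Adra1a and 4 of Pde4d, were well above background on at most 13 of the 26 arrays and were not tested.

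Each array held the tissue RNA of 1 mouse. The mice were C57BL6/J males. All mice, controls included, were fasted for 24 h and refed for 18 h, with 20% glucose in the drinking water. This regimen was meant to activate ChREBP, the glucose-sensing transcription factor encoded by Mlxipl. The 4 groups were total ChREBP KO mice, which lack both the α and the β isoform in all tissues (n = 7), WT mice of that line (n = 7), ChREBPβ KO mice, in which the exon used only by the β isoform was deleted by CRISPR/Cas9 (n = 5), and WT littermates of the ChREBPβ line (n = 7). The age of the mice was not given in the sources used here, and both deletions were present in the whole body rather than in adipocytes alone. All levels are log2 intensities after quantile normalization, so that a difference of 1 is a doubling, and a probe was called at a Benjamini-Hochberg adjusted p of 0.05 in limma over all tested probes. The median spot intensity per array ran from 59 to 107.5 against a median background of 15 to 23, no spot was saturated, and the number of arrays sets the precision. At its brightest probe, the targeted gene Mlxipl lay between 13.6 and 14.0 in total ChREBP KO against 15.6 to 16.6 in its WT, and between 13.9 and 14.4 in ChREBPβ KO against 15.3 to 16.2 in its WT. Of its other probes, A_55_P2728555 was at -0.91 in total ChREBP KO (adjusted p = 2.29e-06) and -0.68 in ChREBPβ KO (adjusted p = 0.058, not called), and A_55_P2045158 was called in neither, at -0.14 and 0.04 (adjusted p = 0.14 and 0.97).

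In fat cells, noradrenaline from sympathetic nerves acts through β-adrenergic receptors and a stimulatory G protein to raise cyclic AMP, whereas the α2A receptor works through an inhibitory G protein and lowers it. Cyclic AMP releases the catalytic subunits of protein kinase A from regulatory subunits, and the kinase then switches on lipolysis and, in beige cells, thermogenesis. Natriuretic peptides act in parallel through cyclic GMP, and phosphodiesterases break both messengers down. Insulin, which is high after refeeding, restrains lipolysis largely through the phosphodiesterase encoded by Pde3b.

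Promoter sequences in RefSeq on build GRCm38.p6 were matched by symbol for 6 of the 9 genes, with 7 start sites. The 250 bases before the first listed start are shown for Adrb1, which was lower in total ChREBP KO, for Prkar2b, which was higher, and for Npr3, which differed between the WT mice of the lines, because these carry results given further on. They lie at chr19:56721867-56722116 on the plus strand, chr12:32061278-32061527 on the minus strand and chr15:11907372-11907621 on the minus strand. Each is written 5′ to 3′ toward the start, and capitals mark matches on either strand to any motif searched.
Adrb1: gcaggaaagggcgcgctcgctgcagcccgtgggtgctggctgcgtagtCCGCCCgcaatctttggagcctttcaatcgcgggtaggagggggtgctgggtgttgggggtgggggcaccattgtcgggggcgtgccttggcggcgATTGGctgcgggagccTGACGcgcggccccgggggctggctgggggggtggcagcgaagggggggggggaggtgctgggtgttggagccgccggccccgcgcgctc
Prkar2b: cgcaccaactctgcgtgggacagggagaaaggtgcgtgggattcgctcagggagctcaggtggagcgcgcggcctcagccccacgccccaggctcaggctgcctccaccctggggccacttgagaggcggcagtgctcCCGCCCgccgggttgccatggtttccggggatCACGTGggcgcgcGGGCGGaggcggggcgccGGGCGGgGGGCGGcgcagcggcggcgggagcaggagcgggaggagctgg
Npr3: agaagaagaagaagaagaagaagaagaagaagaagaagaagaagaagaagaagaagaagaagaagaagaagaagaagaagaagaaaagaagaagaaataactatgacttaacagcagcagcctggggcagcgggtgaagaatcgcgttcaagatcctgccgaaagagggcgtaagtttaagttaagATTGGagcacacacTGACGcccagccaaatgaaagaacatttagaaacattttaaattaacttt
The motifs searched were a carbohydrate response element (the sites CACNNG and CNNGTG with 5 bases between them), the E-box CACGTG, the core TGACG of the cyclic AMP response element, the GC box GGGCGG and the CCAAT box CCAAT. A full carbohydrate response element contains a degenerate E-box, and a CACGTG inside one would count for both. The full carbohydrate response element occurred in none of the 7 member promoters and in 0.387% of 32851 promoters of that length. The E-box began 80 bases before the first listed start of Prkar2b and before the start of Adra2a, and was in 6.02% of all promoters. The TGACG core lay 90 bases before the start of Adrb1, 50 before that of Npr3 and 69 before that of Adra2a, and was in 17.8% of all promoters. Prkar2b had 4 GC boxes before its first listed start, a motif that 32.7% of promoters held. The CCAAT box, present in 33.8%, was found in Adrb1, Npr1 and Npr3. G and C made up 74.0% of the Adrb1 window and 75.6% of the Prkar2b window against a median of 52.4% over all promoters, whereas the Npr3 window, with a long run of gaa repeats, had 38.8%. The window before the other listed start of Prkar2b, not shown, held none of the motifs.

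Of the 17 tested probes, total ChREBP KO changed 11 relative to its WT, with 6 higher and 5 lower. The background was high, since 45.6% of all tested probes were called in that comparison, 26.3% higher and 19.3% lower, and the member count is read as no more than that. At 6 probes of 4 genes (Adrb1, Adrb3, Pde3b and Prkar2b) the KO and WT arrays did not overlap, which held for 14.2% of all probes. No member had separate groups in ChREBPβ KO, against 0.402% of all probes. In ChREBPβ KO against its WT none of the 17 was called, with 5 at an unadjusted p under 0.05 and a lowest adjusted p of 0.40, and 0.0361% of all probes were called, 0.00515% higher and 0.0309% lower. When the difference between both KO effects was itself tested, 6 probes of the same 4 genes were called, with 22.4% of all probes called in that test, 9.84% higher and 12.6% lower.

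**Figure D1:**
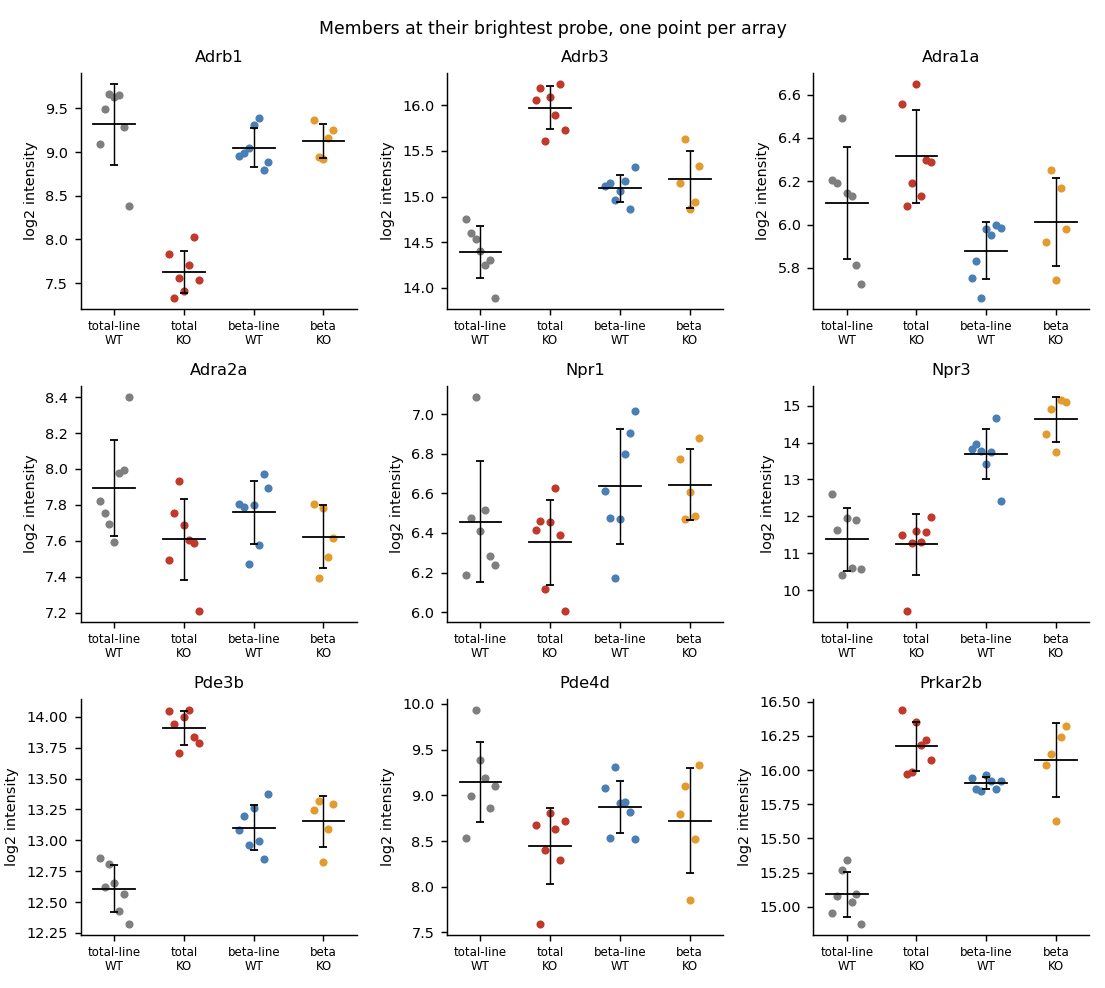
Log2 intensity of each member at its brightest probe, with 1 point per array, a line at the group mean and bars of 1 SD, for total-line WT (n = 7), total KO (n = 7), beta-line WT (n = 7) and beta KO (n = 5). Adrb1 is low in total KO alone, Adrb3 and Pde3b are highest there, Prkar2b is low in total-line WT alone, and Npr3 separates the lines rather than the genotypes; the vertical scales differ and do not start at 0.

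The β-adrenergic receptors moved in opposite directions when both isoforms of ChREBP were missing. Adrb1 encodes the β1 receptor, and its single probe (A_52_P322181, mm9 chr19:56799215-56799274) ranged from 8.38 to 9.67 with a median of 9.49 in total-line WT, and from 7.33 to 8.03 with a median of 7.56 in total ChREBP KO. The lowest WT array stood above the highest KO array. Adrb1 fell by 1.69 on the log2 scale (SE 0.16, adjusted p = 5.57e-09), which left 31.0% of the WT signal. In the ChREBPβ line the WT arrays lay between 8.79 and 9.39 with a median of 8.99, and the 5 KO arrays had 8.92, 8.94, 9.17, 9.25 and 9.37. Those groups overlapped completely, and the difference was 0.08 with a 95% interval from -0.28 to 0.43 (adjusted p = 0.97). The difference between the KO effects was 1.77 (SE 0.23, adjusted p = 8.70e-06), a call that was lost with the slide as a fixed block (1.71, adjusted p = 0.068).

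Adrb3 encodes the β3 receptor, which in mice is largely a receptor of fat cells. Its brighter probe (A_55_P1992849, mm9 chr8:28336268-28336327) had a lowest value of 13.89, a median of 14.41 and a highest value of 14.75 in total-line WT, and of 15.61, 16.06 and 16.23 in total ChREBP KO. Every KO array exceeded every WT array. The rise was 1.58 (SE 0.13, adjusted p = 4.51e-10), a 2.99-fold difference, and the second probe (A_55_P2105685, mm9 chr8:28337864-28337923) gave 1.59 (SE 0.15, adjusted p = 5.98e-09), also without overlap. In the ChREBPβ line the brighter probe ran from 14.86 to 15.32 in WT, with a median of 15.11, and was 14.87, 14.95, 15.15, 15.34 and 15.64 in KO. That difference was 0.10 with a 95% interval from -0.19 to 0.38, and the second probe differed by 0.35 (unadjusted p = 0.0399, adjusted p = 0.60). The KO effects of the lines differed by -1.48 (adjusted p = 5.07e-06) and -1.24 (adjusted p = 3.06e-04) at these probes, and the second call was lost with the slide as a fixed block (-0.91, adjusted p = 0.090).

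Adrb3 also differed between the WT mice of the lines, in a comparison that uses the same total-line WT arrays as controls and in which 45.2% of all probes were called, 25.8% higher and 19.4% lower, and 16.1% did not overlap. Of the member probes 7 were called there, all higher, and 2 did not overlap. WT mice of the ChREBPβ line were higher by 0.70 at the brighter probe (SE 0.13, adjusted p = 7.04e-05, no overlap) and by 0.49 at the other (adjusted p = 0.00861). The order of group means at the brighter probe was total-line WT (14.39), ChREBPβ-line WT (15.09), ChREBPβ KO (15.19) and total ChREBP KO (15.97), and the middle groups differed by less than the spread between mice. Adrb1 did not share this order, since the WT mice of both lines lay at 9.32 ± 0.46 and 9.05 ± 0.22 (SD, n = 7 each) and the difference of -0.27 was not called (adjusted p = 0.18). Without total-line WT replicate 8, the lowest Adrb1 array of that group, it was -0.42 (adjusted p = 0.00697).

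The α-adrenergic receptors Adra1a and Adra2a differed by less than 0.3 on the log2 scale in total ChREBP KO. Adra2a encodes the α2A receptor, which opposes the β receptors. Its probe (A_55_P2021505) ran from 7.59 to 8.40 with a median of 7.82 in total-line WT and from 7.21 to 7.93 with a median of 7.61 in total ChREBP KO. The groups overlapped between 7.59 and 7.93. Adra2a fell by 0.28 (SE 0.11, adjusted p = 0.0442), just past the threshold, and was no longer called when any one of 8 arrays was left out, with adjusted p-values up to 0.13 without total-line WT replicate 8. The call was also lost in 6 of 14 alternatives, among them the wash batch as a block (adjusted p = 0.051) and the lymphocyte and muscle scores as covariates (-0.14, adjusted p = 0.66). Adra1a encodes the α1A receptor, which signals through calcium, and its tested probe (A_51_P447229) was at 0.21 in total ChREBP KO (adjusted p = 0.11), and without total-line WT replicate 4 at 0.28, which was called (adjusted p = 0.0297). Its other probe, designed to a separate transcript, stayed near background throughout, at 4.36 to 4.76. In the ChREBPβ line the differences were -0.13 for Adra2a and 0.13 for Adra1a, with 95% intervals from -0.39 to 0.12 and from -0.11 to 0.38.

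**Figure D2:**
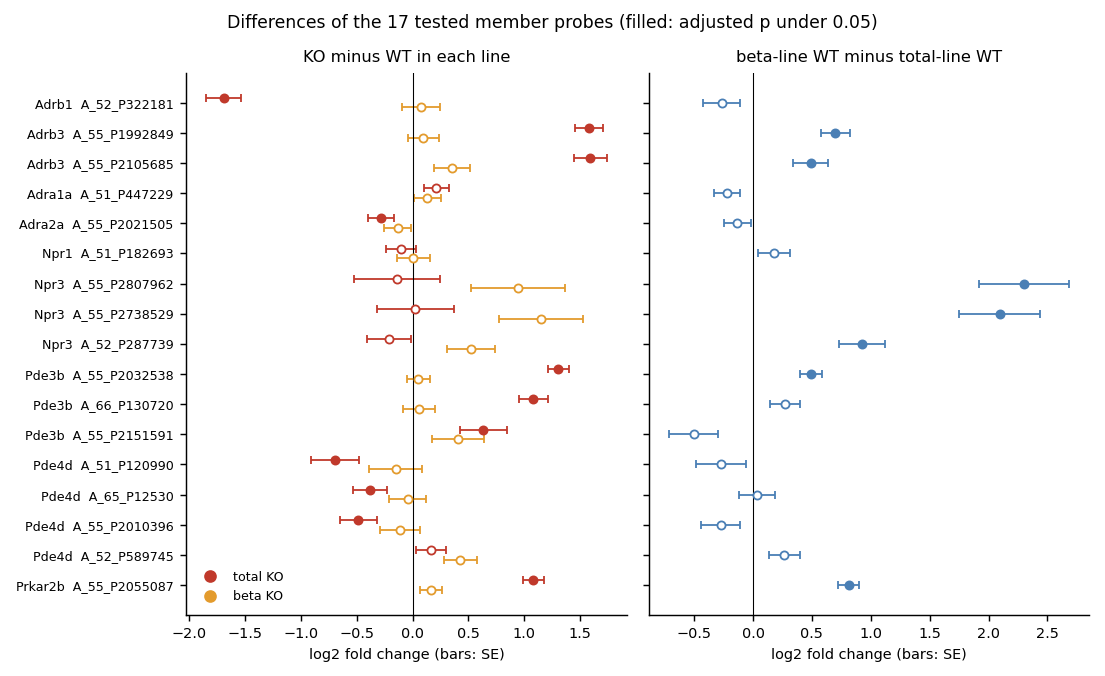
Log2 fold changes with SE of the 17 tested member probes, for KO minus WT within each line (left) and for ChREBPβ-line WT minus total-line WT (right); filled points were called at an adjusted p of 0.05. The left panel shows Adrb1 at -1.69 and Adrb3 at 1.58 and 1.59 in total KO beside beta KO values of 0.08, 0.10 and 0.35, and the right panel shows Npr3 at up to 2.30.

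Of the natriuretic receptors, Npr1 encodes the guanylyl cyclase that makes cyclic GMP, and Npr3 the clearance receptor, which takes the peptides up and removes them. Npr1 (A_51_P182693) had group means from 6.35 to 6.64, was -0.10 in total ChREBP KO and 0.01 in ChREBPβ KO, and was called in neither comparison (adjusted p = 0.55 and 1.00). Npr3 separated the lines instead of the genotypes. Its brightest probe (A_55_P2807962, mm9 chr15:11769666-11769725) ran from 10.41 to 12.60 with a median of 11.63 in total-line WT and from 9.43 to 11.99 with a median of 11.50 in total ChREBP KO. In the ChREBPβ line it ran from 12.42 to 14.68 with a median of 13.76 in WT, and was 13.76, 14.22, 14.90, 15.10 and 15.16 in KO. One WT array of the ChREBPβ line thus lay within the range of the total line, and all others lay above it.

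The WT mice of the lines differed in Npr3 by 2.30 (SE 0.38, adjusted p = 2.49e-05), a 4.94-fold difference, and by 2.09 (adjusted p = 2.26e-05) and 0.92 (adjusted p = 4.24e-04) at the other probes. Total ChREBP KO did not move it detectably, with -0.14 and a 95% interval from -0.93 to 0.66 at the brightest probe and adjusted p-values from 0.41 to 0.96 over the 3 probes. ChREBPβ KO was higher than its WT at all 3 probes, by 0.95, 1.15 and 0.52, with unadjusted p-values of 0.0331, 0.00545 and 0.0226 and adjusted p-values of 0.57, 0.40 and 0.54, so none was called. The 95% interval at the brightest probe, from 0.08 to 1.81, was wide. Among the members at their brightest probes Npr3 varied most between mice of a group, with SDs from 0.61 to 0.85. Total ChREBP KO replicate 2 was the lowest array at all 3 probes.

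**Figure D3:**
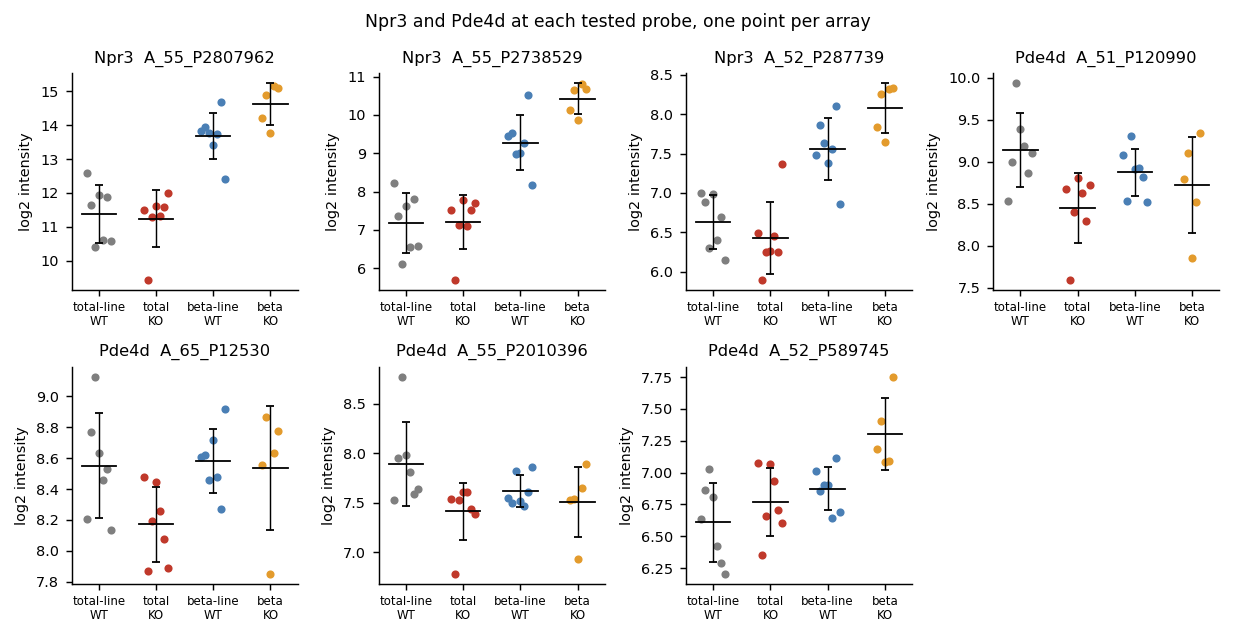
Log2 intensity at each tested probe of Npr3 (3 probes) and Pde4d (4 probes), with 1 point per array, group means and bars of 1 SD. All Npr3 probes are higher in the ChREBPβ line, while the Pde4d probes A_51_P120990, A_65_P12530 and A_55_P2010396 are lower in total KO and A_52_P589745 is not.

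In total ChREBP KO the member phosphodiesterase Pde3b rose, whereas Pde4d fell at some probes only, with calls that depended on the fit. Pde3b, the insulin-activated enzyme of fat cells, rose at all 3 of its probes. At the brightest (A_55_P2032538, mm9 chr7:121681370-121681429) the WT arrays ran from 12.32 to 12.86 with a median of 12.62 and the KO arrays from 13.71 to 14.06 with a median of 13.94, without overlap. The rise was 1.30 (SE 0.09, adjusted p = 7.48e-11), a 2.47-fold difference. The probes A_66_P130720 and A_55_P2151591 gave 1.08 (adjusted p = 2.67e-07, no overlap) and 0.63 (adjusted p = 0.0166, overlapping). The last call was lost in 5 of 14 alternatives, among them the slide as a fixed block (0.48, adjusted p = 0.19) and the lymphocyte and muscle scores as covariates (0.71, adjusted p = 0.12). In ChREBPβ KO the brightest probe was 12.83, 13.09, 13.24, 13.29 and 13.32 against 12.85 to 13.37 in WT, a difference of 0.05 with a 95% interval from -0.16 to 0.27. The KO effects differed by -1.25 (adjusted p = 8.09e-07) and by -1.02 (adjusted p = 4.70e-04) at the brighter probes, the second of which was no longer called with the slide as a fixed block (-0.74, adjusted p = 0.13). WT mice of the ChREBPβ line were 0.49 higher at the brightest probe than those of the total line (adjusted p = 1.32e-04), whereas A_55_P2151591 was at -0.51 (adjusted p = 0.0539), so the probes of this gene disagreed in sign in that comparison.

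Pde4d encodes a cyclic AMP phosphodiesterase with many transcript forms that differ at their 5′ ends. Of its 4 tested probes, the 3 that lie farthest toward the 3′ end of the gene were lower in total ChREBP KO, at -0.70 (A_51_P120990, SE 0.22, adjusted p = 0.0102), -0.48 (A_55_P2010396, adjusted p = 0.0171) and -0.38 (A_65_P12530, adjusted p = 0.0440). All 3 calls were lost with the slide as a fixed block. At A_51_P120990 the values ran from 8.53 to 9.94 with a median of 9.10 in WT and from 7.59 to 8.81 with a median of 8.63 in KO, and the groups overlapped. The probe A_65_P12530 was no longer called when any one of 10 arrays was left out, with an adjusted p of 0.11 without total-line WT replicate 4. The fourth probe, A_52_P589745, lies upstream of these at mm9 chr13:110530748-110547805, where it spans an intron, and stood at 0.16 in total ChREBP KO (adjusted p = 0.34) and at 0.43 in ChREBPβ KO (unadjusted p = 0.00743, adjusted p = 0.41).

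Prkar2b encodes the RIIβ regulatory subunit, the main protein kinase A regulatory subunit of fat cells. Its probe (A_55_P2055087, mm9 chr12:32643366-32643425) ran from 14.88 to 15.34 with a median of 15.08 in total-line WT and from 15.97 to 16.44 with a median of 16.18 in total ChREBP KO. No arrays overlapped, and the rise was 1.08 (SE 0.09, adjusted p = 1.23e-09), a 2.12-fold difference. In the ChREBPβ line the WT arrays lay within 15.85 to 15.97, and the KO arrays were at 15.63, 16.04, 16.12, 16.24 and 16.32. The difference was 0.17 with a 95% interval from -0.04 to 0.38 (adjusted p = 0.75), and the KO effects differed by -0.91 (adjusted p = 4.24e-05). Here the total-line WT group stood apart from the other 3 groups. It was below ChREBPβ-line WT by 0.81 (adjusted p = 1.72e-07, no overlap), while 4 of the 5 ChREBPβ KO arrays lay within the range of total ChREBP KO.

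These are levels in whole tissue, in which fewer cells of a type and less RNA per cell cannot be told apart, and the groups differed in their marker genes. The mean log2 level of 10 adipocyte markers, all well above background on all 26 arrays, ran from 15.60 to 16.14 in total-line WT, from 16.33 to 16.55 in total ChREBP KO, from 16.30 to 16.50 in ChREBPβ-line WT and from 16.19 to 16.58 in ChREBPβ KO. It was 0.57 higher in total ChREBP KO than in its WT, 0.51 higher in ChREBPβ-line WT than in total-line WT, and differed by 0.04 in ChREBPβ KO. Of these markers 9 rose and 1 fell in total ChREBP KO. The mean of 14 lymphocyte markers ran the other way, from 11.25 to 12.82 in total-line WT, 8.46 to 11.51 in total ChREBP KO, 7.80 to 8.87 in ChREBPβ-line WT and 7.81 to 9.29 in ChREBPβ KO, and all 14 fell in total ChREBP KO. Over all genes at their brightest probe, 26.2% were called higher and 19.7% lower in total ChREBP KO.

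Taking each array's levels relative to its adipocyte marker score, an alternative chosen after seeing the data, lowers every difference of total ChREBP KO by 0.57 and every difference between the WT groups by 0.51, whatever the probe. On that scale Adrb3 was at 1.01 (adjusted p = 1.09e-08), Pde3b at 0.74 (adjusted p = 1.96e-08), Prkar2b at 0.51 (adjusted p = 2.75e-07) and Adrb1 at -2.26 (adjusted p = 5.99e-13) in total ChREBP KO, at their brightest probes. Between the WT mice of the lines, Adrb3 was then at 0.19 (adjusted p = 0.095), Pde3b at -0.02 (adjusted p = 0.83) and Prkar2b at 0.30 (adjusted p = 2.03e-04), while Npr3 stood at 1.79 (adjusted p = 8.70e-05). These values set the member differences against the size of the marker difference and say nothing further about a member. With the lymphocyte and skeletal muscle scores as covariates, the differences of total ChREBP KO were -1.91 for Adrb1, 1.29 for Adrb3, 1.18 for Pde3b and 0.87 for Prkar2b, all called. No difference between WT groups in Adrb3, Pde3b, Prkar2b or Npr3 at their brightest probes was called under those covariates, with 0.22 (adjusted p = 0.66), 0.24 (adjusted p = 0.51), 0.33 (adjusted p = 0.22) and 1.51 (adjusted p = 0.30). The lymphocyte scores of the WT groups did not overlap, at 11.25 to 12.82 in the total line and 7.80 to 8.87 in the ChREBPβ line. Line and score can thus hardly be told apart in that fit, and nothing is drawn from the lost calls.

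**Figure D4:**
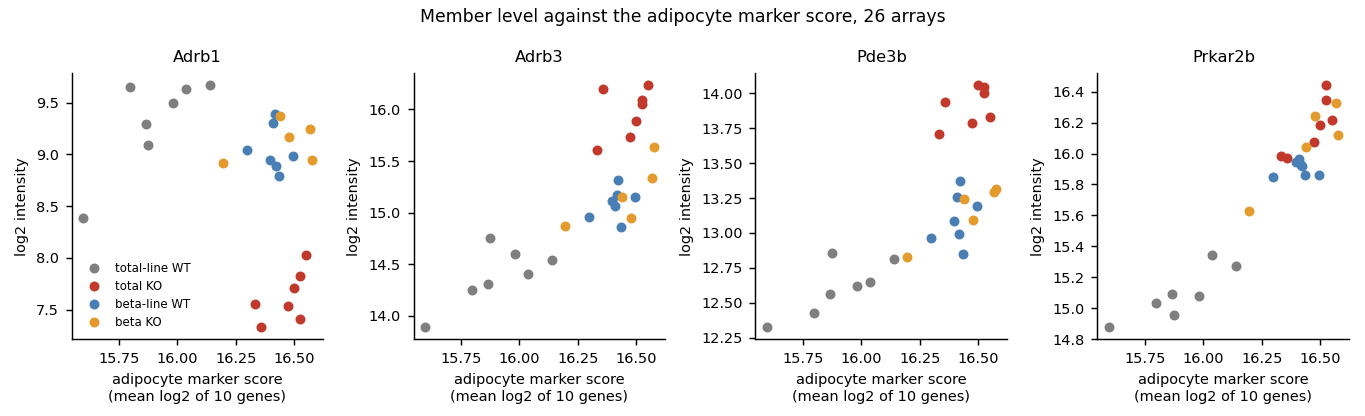
Log2 intensity of Adrb1, Adrb3, Pde3b and Prkar2b at their brightest probes against the adipocyte marker score (mean log2 level of 10 markers) on the 26 arrays, coloured by group. Adrb3 and Pde3b of total KO lie above arrays of the ChREBPβ line with similar scores, Prkar2b lies close to them, and Adrb1 of total KO lies below them at 7.33 to 8.03.

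The brown and beige adipocyte markers also moved with genotype and line. Their mean over 8 tested genes ran from 11.60 to 13.77 in total-line WT, from 10.19 to 10.98 in total ChREBP KO, from 9.84 to 11.48 in ChREBPβ-line WT and from 9.62 to 10.45 in ChREBPβ KO. In total ChREBP KO 7 of them fell and 1 rose, led by Ucp1, the uncoupling protein of thermogenic fat, at -6.85. Over all genes 19.7% were called lower and 26.2% higher there. The part of these marker differences in the member results was not tested.

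Within the wash batches in which arrays were processed, the member differences of total ChREBP KO had the same sign for the genes with the largest changes, although each batch held only 1 or 2 arrays of either group. Over 4 batches, the difference ran from -2.17 to -0.97 for Adrb1, from 1.30 to 1.96 for Adrb3, at least 1.07 for Pde3b and from 0.94 to 1.21 for Prkar2b, with Pde3b and Prkar2b higher in all 4. Adra2a was lower in 3 of the 4 batches. For the WT mice of the lines, the 4 within-batch differences, which rest on 1 to 3 arrays a group, ran from 1.74 to 3.40 for Npr3 and from 0.67 to 0.94 for Prkar2b.

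The rest of the pathway was read from 9 further lists with 89 tested genes, each at its brightest probe. In total ChREBP KO 35 of the 89 were higher and 14 lower, where 45.9% of all genes were called at their brightest probe, 26.2% higher and 19.7% lower. None was called in ChREBPβ KO, where 0.0472% of all genes were, 0.00787% higher and 0.0394% lower. The difference between the KO effects was called for 9 of the 89 in the positive and 19 in the negative direction, against 23.1% of all genes, 9.94% positive and 13.1% negative. Lipolysis effectors were the list with the largest share higher, with 6 of 7 called and a median difference of 0.73 against 0.05 over all genes tested. They were led by the droplet protein Plin1 (0.93, adjusted p = 3.92e-08), the lipase cofactor Abhd5 (0.91, adjusted p = 5.20e-06) and the monoglyceride lipase Mgll (0.77, adjusted p = 3.96e-07). Plin1 is also one of the adipocyte markers above.

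Among the other receptors of fat cells that act through stimulatory or inhibitory G proteins, 8 of 15 were higher and 1 lower in total ChREBP KO. Tshr, the thyrotropin receptor, which raises cyclic AMP, rose by 2.42 (adjusted p = 4.19e-10). Ffar2, a receptor for short-chain fatty acids, rose by 1.67 (adjusted p = 2.16e-07), and Sucnr1, the succinate receptor, by 1.00 (adjusted p = 3.89e-05), both of which inhibit lipolysis. Of 5 other adrenergic receptors, 2 were higher and 1 lower, with Adra1d at 0.96 (adjusted p = 2.01e-04) and Adra2c at 0.38 (adjusted p = 0.0197). Of 3 tested natriuretic peptides and other receptors, Npr2, the receptor of the C-type peptide, was 0.37 higher (adjusted p = 5.13e-04) and the others were not called.

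Downstream of the receptors, Adcy5 rose by 1.24 (adjusted p = 2.95e-05) and Adcy7, a cyclase abundant in immune cells, fell by 1.42 (adjusted p = 3.00e-04), among 9 cyclases of which 3 were higher and 1 lower. The 16 other phosphodiesterases had 4 higher and 3 lower, with Pde1a at 1.33 (adjusted p = 6.26e-08), Pde7b at 0.86 (adjusted p = 1.67e-06) and Pde7a at -0.83 (adjusted p = 7.59e-05). Of 14 other kinase subunits and anchors 5 were higher and 2 lower, and Prkaca, the main catalytic subunit of protein kinase A, rose by 0.79 (adjusted p = 3.46e-06). Of 11 G protein subunits and regulators 4 were higher and 3 lower, with Arrb2 at -0.84 (adjusted p = 3.39e-04) and Rgs2 at 0.60 (adjusted p = 0.00526).

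Genes known to respond to cyclic AMP showed no single direction, with 2 of 9 higher and 3 lower in total ChREBP KO. Dio2, the deiodinase of thermogenic fat, was 1.46 higher (adjusted p = 0.0109), and the nuclear receptors Nr4a1 and Nr4a2 were at -1.32 (adjusted p = 2.47e-04) and -1.24 (adjusted p = 3.65e-06). Of 5 tested genes of sympathetic nerves, Th, which makes the precursor of noradrenaline, was at -0.62 (adjusted p = 6.44e-04) and Ddc at -1.09 (adjusted p = 0.0086), and 3 were not called. Comparing the WT groups, 38 of the 89 pathway genes were higher in the ChREBPβ line and 18 lower, where 45.6% of all genes were called, 26.4% higher and 19.2% lower.

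**Figure D5:**
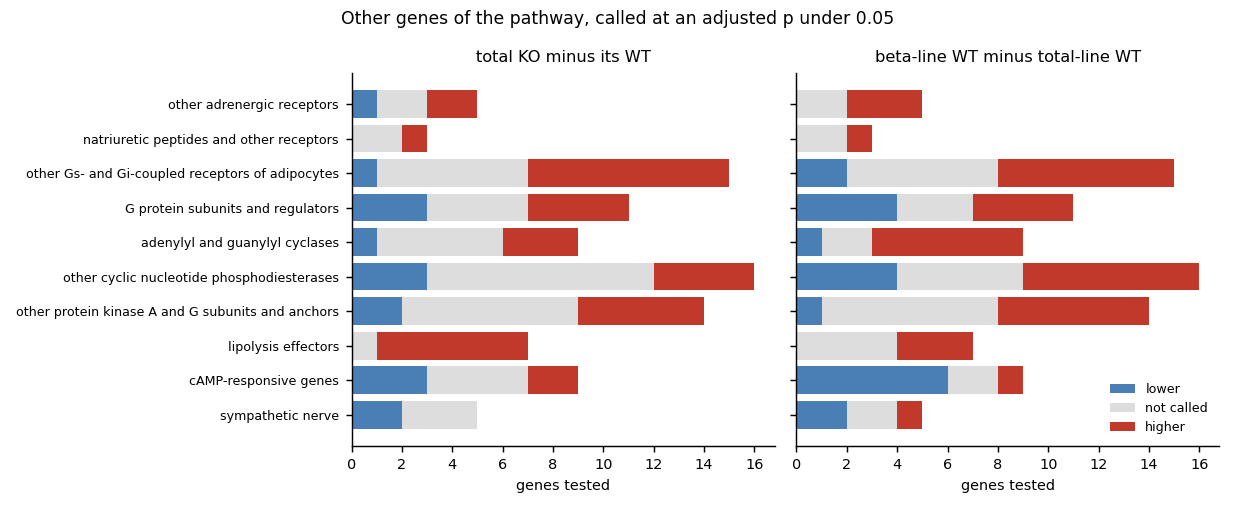
Number of tested genes called lower, not called and called higher (adjusted p of 0.05, brightest probe) in 9 pathway lists and in the sympathetic nerve list, for total KO minus its WT (left) and ChREBPβ-line WT minus total-line WT (right). In total KO 6 of 7 lipolysis effectors are higher, and between the WT groups 6 of 9 cAMP-responsive genes are lower in the ChREBPβ line.

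The members also varied together within groups to different degrees. Over the 26 arrays, with each group's mean removed, Adrb3 and Pde3b had a Pearson correlation of 0.76, Prkar2b correlated at 0.67 with Pde4d and 0.55 with Pde3b, Adra2a and Adrb1 at -0.53, and Npr3 at 0.06 with Adrb3. Among 17355 genes compared, the closest to Adrb3 was Eif4ebp1 (0.84), followed by Nudt13 and Dbt. Pde3b was closest to Cyhr1 (0.89), Prkar2b to Ptp4a1 (0.91), Npr3 to Gm5144 (0.94) and Pde4d to Cbx5 (0.88). Adrb1 was closest to Mapt (0.73), Adra1a to Acbd4 (0.83), Adra2a to Ppm1e (0.79) and Npr1 to Upk1a (0.82). These correlations are descriptive, since the points share the tissue makeup of each sample and the highest of all these genes were picked.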

How the data were processed

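Single-colour arrays (SurePrint G3 Mouse layout, 1 Cy3-labelled sample each) measured RNA of inguinal subcutaneous white adipose tissue in 26 mice, grouped by the labels. The authors scanned them with Agilent Feature Extraction 10.10.1.1, and the deposited scanner files hold linear spot intensity values with quality calls. The authors also deposited a table of filtered, quantile-normalized log2 values, used as an alternative. Here, log2 median intensities without background subtraction were recomputed from the scanner files. As a step of this work that the methods do not describe, 1747 outlier values were set to missing. Probes well above background on 21 of 26 arrays, or on 75% of a group, were kept (the methods give 26 of 32), quantile normalized and reduced to the median of replicate spots. The deposited table correlated with these values at 0.99996 or more per array, and its column medians ran from 7.76 to 7.77.

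A model with 4 group means was fitted with limma 3.58.1 in R 4.3.3, with Benjamini-Hochberg adjustment over 38832 probes. The fit was tested on simulated data. The labels give replicate numbers, which were taken as separate mice because the authors state n as the number of animals. The p-values measure the spread between these mice. The alternatives were other scaling, signals, background correction, filter, batch, slide and replicate blocks, array weights, marker covariates, leaving out each array and, chosen after seeing the data, levels relative to the adipocyte marker score. The members and the gene lists were chosen with earlier results of these data known. All members were described, and of the other lists at most the 3 largest called differences were named. Genes of likeness were the closest by correlation of residuals. Probe positions are those of the array annotation (mm9), and sequences are RefSeq's (GRCm38.p6). Further markers, for macrophages, endothelium, mural cells, progenitors, muscle and epithelium, are in the closing section.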

Additional observations from a re-analysis of the deposited data

Results flagged for a closer look

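At the 17 tested probes in 4 groups, 68 sets of arrays were examined for a single array far from the rest, and chance flags about 1 in 20 such sets. Probes of the same gene were read on the same arrays, so the sets are not independent and the count is not judged against that share. Of the 7 found, 4 were total ChREBP KO replicate 2, which was low at the Npr3 probes A_55_P2807962 (9.43) and A_55_P2738529 (5.69) and at the Pde4d probes A_51_P120990 (7.59) and A_55_P2010396 (6.78). Total-line WT replicate 4 was high at Npr1 (7.09) and at the Pde4d probe A_55_P2010396 (8.77), and total ChREBP KO replicate 8 was high at the Npr3 probe A_52_P287739 (7.37). Without replicate 8 the difference between the KO effects at that last probe was 0.89 (adjusted p = 0.0118).

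The KO effects differed between the lines, by limma's interaction term, at 6 probes. ChREBPβ KO minus total ChREBP KO effect was 1.77 for Adrb1, -1.48 and -1.24 for Adrb3, -1.25 and -1.02 for Pde3b and -0.91 for Prkar2b. Each line had its own WT group, so line and genotype cannot be told apart in these differences.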

How the results depend on the processing

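In total ChREBP KO, 11 member probes were called, and 6 with the slide as a fixed block (losing Adra2a, the Pde3b probe A_55_P2151591 and the Pde4d probes), which left 8 residual degrees of freedom and called 8386 of all 38832 probes instead of 17691. The largest changes, of Adrb1, Adrb3, Pde3b and Prkar2b at their brightest probes, were called in the same direction under all 14 alternatives and without any one array. The difference between the KO effects was called at 6 probes, at 3 with the slide as a fixed block (losing Adrb1, the Adrb3 probe A_55_P2105685 and the Pde3b probe A_66_P130720) and at 16 with levels relative to the adipocyte marker score. Over all probes these fits called 8714, 612 and 27055. Between the WT mice of the lines, 7 probes were called, 1 with the scores of lymphocytes and muscle in the fit and 14 relative to the adipocyte marker score (4 higher, 10 lower), beside 17552, 1332 and 31438 of all probes. With scaling to the 75th percentile 7 were higher and 2 lower in that comparison. ChREBPβ KO gave 0 under all alternatives. Leaving out 1 array gave 9 to 11 calls in total ChREBP KO, 0 to 0 in ChREBPβ KO, 6 to 8 for the difference and 7 to 9 between WT mice. For these fits and the scaling to the 75th percentile, counts over all probes are not given here. Their member counts are not read as results about the members.

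The labels do not say whether mice with the same replicate number in a line were paired. Of 6 such pairs of the total line 3 correlated above 0.1 (r from -0.36 to 0.51). In the ChREBPβ line 1 of 4 did (r from -0.33 to 0.14). So few pairs cannot decide the question, and the main fit used no pairing. The replicate block left 8 residual degrees of freedom. With it, 7 member probes were called in total ChREBP KO, 0 in ChREBPβ KO and 6 for the difference between the KO effects. In total ChREBP KO the calls of Adra2a and of the 3 Pde4d probes were lost, and no other call of these comparisons changed. The blocks were set within each line and take up the difference between lines, so the WT comparison cannot be read from that fit. Its count over all probes is not given here, and the lost calls are not read as results about the members.

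With levels relative to the adipocyte marker score, which adds the same amount to every probe of a comparison, signs turned wherever that amount exceeded the difference. In total ChREBP KO the differences became -0.35 for Adra1a, -0.54 for the Npr3 probe A_55_P2738529 and -0.40 for the Pde4d probe A_52_P589745. The difference between the KO effects became 0.45 for Adra1a and 0.30 for the Pde3b probe A_55_P2151591. In ChREBPβ KO, where the amount was 0.04, Npr1 at 0.01 turned as well. Among WT mice they became -0.022 for the Adrb3 probe A_55_P2105685, -0.33 for Npr1, -0.018 and -0.24 for the Pde3b probes A_55_P2032538 and A_66_P130720, and -0.48 and -0.25 for the Pde4d probes A_65_P12530 and A_52_P589745.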

Other observations

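The other cell markers of the tissue were read beside the members, with no cause drawn. In total ChREBP KO, 4 of 12 skeletal muscle markers were higher, and all 12 were positive with a median difference of 2.42. Their mean log2 level ran from 6.42 to 13.05 with a median of 11.09 in that group and from 6.19 to 12.06 with a median of 6.39 in its WT. In the ChREBPβ line the medians were 9.23 in WT and 9.43 in KO. Macrophage markers were lower in 3 of 8 genes, endothelial markers higher in 4 of 8, smooth muscle and mural markers higher in 1 and lower in 1 of 6, progenitor markers higher in 1 of 6, and none of 4 tested markers of mammary and skin epithelium was called. Over all genes at their brightest probe, 26.2% were called higher and 19.7% lower in total ChREBP KO. Counts near these shares are not read as results about a cell type. Between the WT mice of the lines, the ChREBPβ line had 5 of 6 progenitor markers, 6 of 8 macrophage markers and 5 of 8 endothelial markers higher, and all 14 lymphocyte markers and all 8 tested brown and beige markers lower. Over all genes 26.4% were called higher and 19.2% lower in that comparison. No marker list had a called gene in ChREBPβ KO against its WT, where 0.0472% of all genes were called.

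Adipocyte progenitor markers, led by Pi16 (1.72), Dpt (1.58) and Cd34 (1.30), were higher in the WT mice of the ChREBPβ line, as Npr3 was (2.30). Their mean ran from 11.54 to 12.37 in total-line WT and from 12.43 to 13.40 in ChREBPβ-line WT. In ChREBPβ KO against its WT, 5 of the 6 were negative with a median of -0.26, none called, while the Npr3 probes were at 0.95, 1.15 and 0.52, also not called. Their part in the Npr3 difference was not tested.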
